A study of Mus musculus with 132 samples.

Results

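Transcripts of 10 chaperone genes were followed through mouse preimplantation development: the cytosolic HSP70 genes Hspa1a, Hspa1b and Hspa8, their partners Dnajb1 and Hsph1, the cytosolic HSP90 genes Hsp90aa1 and Hsp90ab1, the endoplasmic reticulum (ER) chaperones Hspa5 and Hsp90b1, and the small heat shock protein gene Hspb1. The rule took the genes by name, and the names were picked with earlier results of these data known. All 10 had a row among the 32245 genes of the count table. Every value below comes from the single cells of that table, none left out unless said.

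Chaperones bind proteins that are not yet folded or have lost their fold. HSP70 proteins work with J proteins, which bring substrates and stimulate ATP hydrolysis, and with nucleotide exchange factors, which release them. HSP90 proteins receive later folding intermediates such as kinases and hormone receptors. Heat shock factors, which bind heat shock elements in promoters, drive the stress-inducible genes, whereas the unfolded protein response drives ER chaperones through ER stress response elements. In the mouse, HSP70 transcripts are known among the earliest products of the embryonic genome at the 2-cell stage.

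The study asked how miR-381-3p affects the early embryo. Superovulated C57BL/6 x DBA F1 females were mated with F1 males of the same cross, and 2-cell embryos were flushed from them and kept in KSOM medium. The medium held either a synthetic miR-381-3p mimic or, as control, a scrambled mimic at 5 or 10 µM. Single cells were picked from 8-cell embryos on embryonic day 2.5 and from 32-cell embryos on day 3.5 for Smart-seq2, which reads polyadenylated RNA without molecular identifiers. This gave 30 8-cell control, 24 8-cell mimic, 39 32-cell control and 39 32-cell mimic cells, from 3 to 5 embryos a group.

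The labels give neither the embryo nor the dose of a cell, so each group was 1 sample and no test between groups was possible. The study's text gives the higher dose for the 8-cell and the lower for the 32-cell embryos, and the labels give the scrambled mimic the same concentration as the mimic, so in both treatments a difference between stages cannot be told apart from a difference in dose. Each value below is in counts-per-million (CPM), either of a cell or pooled over the cells of a group, with mitochondrial genes left out. Bracketed ranges are exact 95% intervals, Poisson for a CPM level and conditional binomial for a fold difference. They treat each count as independent and cover neither the spread between cells nor that between embryos. Since PCR copies are counted separately, they can be too narrow for counting error as well.

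Total counts per cell ran from 544866 to 3461022, and group medians from 1212130 to 1339190. Counts of 0 in a group allowed 0.0527 to 0.0971 CPM, the level of 3 counts. In 3 8-cell mimic cells, numbered 64, 65 and 81 in their titles, 3243 to 4881 genes had a count, against 5919 or more in every other cell; pooled values without these cells are given as well. Cells are called Y type below where Y-linked transcripts exceeded Xist, the transcript that coats an inactive X chromosome, and Xist type where Xist was counted and Y-linked transcripts stayed under 20 CPM. At the 32-cell stage 39 of 39 control cells were Y type and 39 of 39 mimic cells Xist type, so treatment there cannot be told apart from this difference. At both stages treatment cannot be told apart either from the runs of consecutive title numbers, which the labels do not call batches: at the 32-cell stage there were 2 in control and 3 in mimic, and at the 8-cell stage all 24 mimic cells formed a single run apart from those of control. In the titles the numbers of 8-cell cells carry the letter a and those of 32-cell cells b, a mark that the labels do not explain and that cannot be told apart from stage. At the 8-cell stage 23 of 30 control and 11 of 24 mimic cells were Xist type, and 7 and 8 were Y type. None of the 10 genes lies on a sex chromosome.

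The sequences below are those that tie the genes to the treatment and to their textbook regulators. The mature miR-381-3p is encoded at chr12:109726870-109726891 on the plus strand (RefSeq, GRCm38.p6), and its seed, bases 2 to 8, is in capitals. Of the 10 genes, only Hspa5 held a match to the 7 seed bases (CTTGTAT) in its longest annotated 3′ UTR (GENCODE M21, the same build). The match starts at base 965 of 1434, and the site is in capitals. None held the 8-base site CTTGTATA. Of 20775 genes with a 3′ UTR, 11.5% held the 7-base and 3.11% the 8-base site.

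mmu-miR-381-3p: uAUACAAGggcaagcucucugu

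Hspa5 3′ UTR: atttaaatataCTTGTATtttatattttg

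Promoters, from 250 bases before to 50 after the start, were found in RefSeq for 7 of the 10 genes, and Hspa8, Hsp90aa1 and Hsp90ab1 were not in that table. Both strands were searched for the ER stress response element as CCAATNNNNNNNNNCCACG and for the heat shock element as GAANNTTCNNGAA, motifs whose matches did not overlap in these promoters. The ER element was in the promoters of both ER chaperones, with 1 match in Hspa5 and 2 in Hsp90b1, and in none of the other 5 genes. It was in 39 of all 32851 promoters (0.119%). The heat shock element in this strict form was in Hsph1 alone of the 7, and in 0.603% of all promoters. Matches are in capitals, on the gene's strand. They are chr2:34772020-34772049, plus strand, for Hspa5, chr10:86705632-86705661 and chr10:86705527-86705556, minus strand, for Hsp90b1, and chr5:149636279-149636308, minus strand, for Hsph1.

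Hspa5 promoter: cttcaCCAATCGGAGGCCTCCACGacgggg

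Hsp90b1 promoter, distal: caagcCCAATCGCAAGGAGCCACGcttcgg

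Hsp90b1 promoter, proximal: gagtgCGTGGTGAGGCACGATTGGtgagtt

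Hsph1 promoter: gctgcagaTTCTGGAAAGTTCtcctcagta

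Chaperone transcripts were abundant at both stages, and their sum changed little while its make-up did. The 10 genes together reached 12679 CPM in 8-cell control, 13111 in 8-cell mimic, 13981 in 32-cell control and 13861 in 32-cell mimic cells. The 2 ER genes made up 734, 439, 2746 and 1602 CPM of these sums in the same order. Per kilobase of the longest transcript, Hsp90ab1 was first in all 4 groups, at 2483, 2991, 1422 and 1838 CPM per kb. Hspa8 and then Hsp90aa1 followed it in both 8-cell groups and in 32-cell control, with 1206 and 1095 CPM per kb in the latter, and their order was the reverse in 32-cell mimic cells, with 882 and 1535. Hspa5 came next in each group, and Hspa1a and Hspa1b were last. With the mean length of coding transcripts in place of the longest, Hsp90aa1 came before Hspa8 in 32-cell control too.

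**Figure D1:**
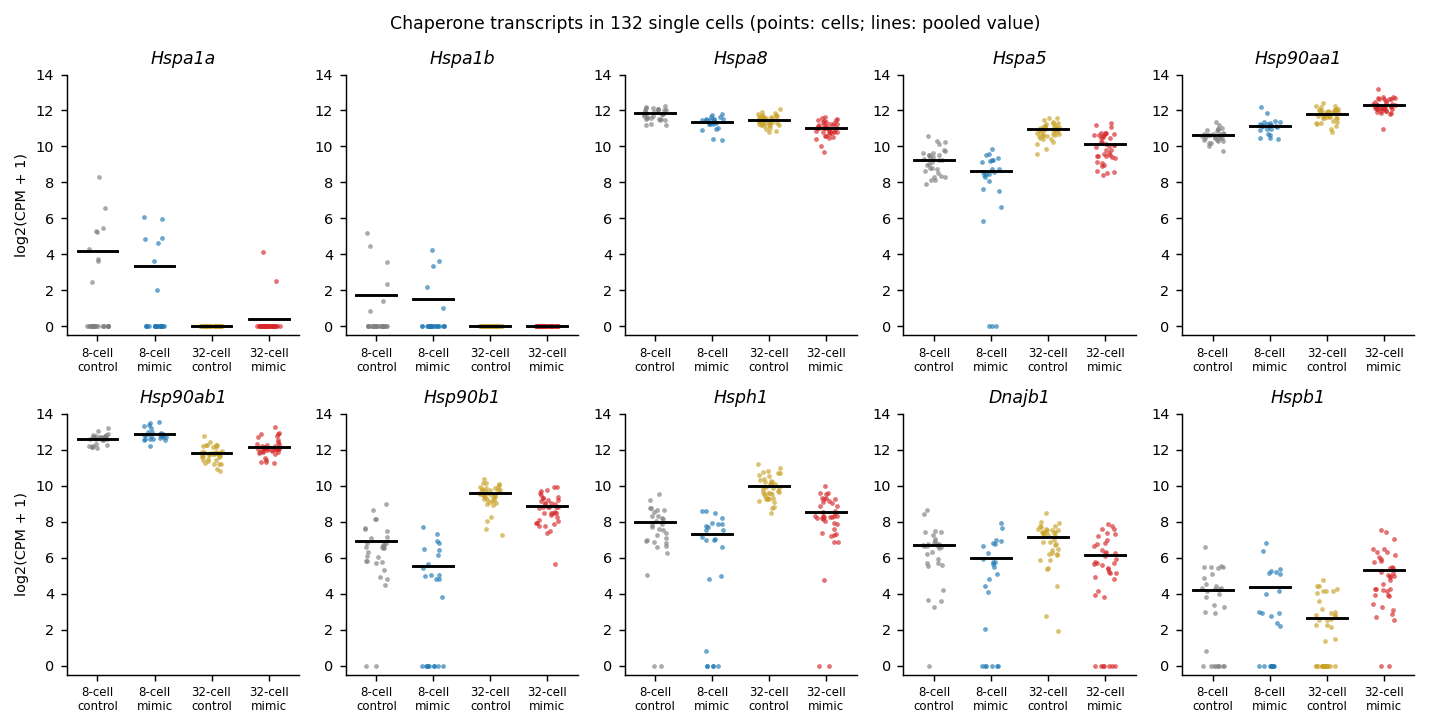
Transcript level of the 10 chaperone genes in single cells, as log2(CPM + 1), in 8-cell control (30 cells), 8-cell mimic (24), 32-cell control (39) and 32-cell mimic (39); points are cells and black lines are values pooled over a group. Hspa5, Hsp90aa1, Hsp90b1 and Hsph1 are higher in 32-cell cells, Hspa1a and Hspa1b have counts almost solely in 8-cell cells, and Hspb1 is highest in 32-cell mimic cells.

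Between the stages, 4 genes were at least 2-fold higher at the 32-cell stage, and they were the same 4 in control and in mimic cells: Hspa5, Hsp90aa1, Hsp90b1 and Hsph1. Hspb1, at 0.98 in mimic, lay just under the threshold and passed it there in 9 of 19 alternatives, so the match of the sets depends on the setting. A 2-fold difference means a difference of 1 or more in log2(CPM + 1), counted among genes that reached 20 CPM in either group. In control, these were 4 of the 7 chaperones that reached 20 CPM, where 30% of 7469 genes were as much higher and 20.1% as much lower. In mimic cells they were 4 of 8, where 29.1% of 7594 genes were higher and 18.8% lower. None of the 10 was 2-fold lower by this rule, since Hspa1a, Hspa1b and, in control, Hspb1 stayed under 20 CPM. The median of the chaperones at 20 CPM or more was 1.19 in control and 1.07 in mimic, beside 0.20 over all genes in each. Each of the 4 groups enters 2 of the 4 comparisons, so the comparisons are not independent.

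Between mimic and control, fewer differed. At the 8-cell stage 1 of 7 chaperones, Hsp90b1, was 2-fold lower in mimic, where 6.96% of 6570 genes were higher and 6.09% lower. At the 32-cell stage Hspb1 was higher and Hsph1 lower, 2 of 8, where 6.87% of 7307 genes were higher and 5.36% lower. The chaperones' median was −0.64 at the 8-cell and −0.57 at the 32-cell stage, beside 0.03 and 0.01 over all genes. Hspa8, Hspa5, Hsp90b1, Hsph1 and Dnajb1 were lower in mimic at both stages, and Hsp90aa1 and Hsp90ab1 were higher at both. Hspb1 was higher in mimic at the 32-cell stage, and at the 8-cell stage its direction turned with the cells used (0.16 with all cells, −0.17 without the 3 with few genes).

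Leaving out the 3 cells with few genes changed the 8-cell mimic levels as follows. The inducible genes Hspa1a and Hspa1b were then 10.6 and 2.08 CPM, and Hspa8 was 2610, 1.43-fold lower than in control. Hspa1a was then 1.59-fold and Hspa1b 1.14-fold lower than in control, but single cells set these directions: without control cell 9 the control level of Hspa1a was 9.24 CPM, under that of mimic. Hsp90aa1 was 2230 CPM, 1.42-fold higher than in control, and Hsp90ab1 was 7272, 1.16-fold higher. The ER genes Hspa5 and Hsp90b1 were 453 and 44.6 CPM, 1.36-fold and 2.68-fold lower. Hsph1 was 165.8 CPM and 1.53-fold lower, and Dnajb1 was 1.46-fold lower. The directions against control at the 8-cell stage were thus the same with and without the 3 cells, except for Hspb1, described above. Those of Hspa1a and Hspa1b rest on single cells all the same. The stage differences in mimic were then −3.11 for Hspa1a, −1.62 for Hspa1b, −0.31 for Hspa8, 1.16 for Hsph1, 1.17 for Hsp90aa1, −0.65 for Hsp90ab1, 1.32 for Hspa5 and 3.38 for Hsp90b1, on the log2 scale. The 4 genes past 2-fold between the stages with all cells still passed without the 3.

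**Figure D2:**
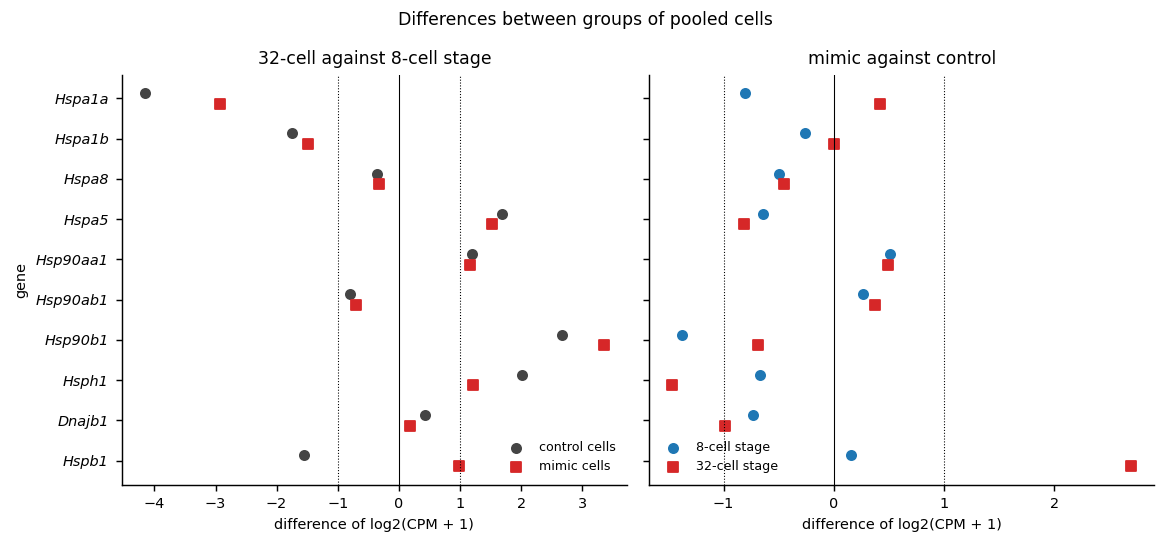
Differences of log2(CPM + 1) between pooled groups for each gene, 32-cell less 8-cell cells at left (control and mimic cells) and mimic less control at right (8-cell and 32-cell stage); dotted lines mark 2-fold. At left the control and mimic points of Hspb1 lie on opposite sides of 0, at −1.56 and 0.98, and those of Hspa1a, at −4.16 and −2.93, and Hsph1, at 2.01 and 1.22, also lie apart, and at right only Hspb1 at the 32-cell stage lies above 2-fold, at 2.70.

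Hspa1a (chromosome 17, 34969190 to 34972156) and Hspa1b (chromosome 17, 34956436 to 34959238), neighbours on the minus strand, encode the stress-inducible HSP70. Of the 75-base stretches of the Hspa1b transcript, untranslated parts included, 55.8% also occur in Hspa1a. How counts were split between the pair is therefore uncertain, and their sum is the safer value. Either gene had a count in 12 of 30 8-cell control and 9 of 24 8-cell mimic cells, and in 0 of 39 32-cell control and 2 of 39 32-cell mimic cells. These inducible genes were thus patchy at the 8-cell stage and almost without counts at the 32-cell stage.

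Hspa1a ran from 0 through a median of 0 to a highest cell of 318 CPM in 8-cell control and 65.3 in 8-cell mimic, and its pooled levels were 16.9 [15.6 to 18.3] and 9.22 [8.18 to 10.4] CPM. The highest control cell, cell 9, gave 46.6% of the control counts, and without it control was at 9.24 CPM and the log2 difference of mimic from control went from −0.81 to −0.0027. Hspa1b pooled to 2.37 and 1.81 CPM, with highest cells of 35.2 and 17.9. Without these cells, cell 9 in control and cell 82 in mimic, it was 1.54 and 1.05 CPM. The folds between stages that follow therefore rest in part on single cells. In 32-cell control both had 0 counts, which made Hspa1a at least 320-fold and Hspa1b at least 44.9-fold lower than in 8-cell control. In 32-cell mimic cells Hspa1a had 18 counts in 2 cells and was 27.3-fold lower than in 8-cell mimic [16.9 to 46.7], and Hspa1b had 0, at least 32.2-fold lower. None of these levels reached 20 CPM.

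Transcripts that mark oocytes, taken as a sum, had the same order across the groups. The summed level of Zp3, Gdf9, Bmp15 and Oosp1 was 77.9 CPM in 8-cell control (4 of 4 detected), 38.6 in 8-cell mimic (3 of 4), 0.404 in 32-cell control (1 of 4) and 2.55 in 32-cell mimic cells (2 of 4). Zp3, which encodes a zona pellucida protein, made up 66.7 CPM of the first sum and 17.2 of the second. Gdf9 and Bmp15, growth factors of the oocyte, had the opposite order at the 8-cell stage, at 10.5 and 0.0272 CPM in control and 14.4 and 7.02 in mimic. Their part in the Hspa1a and Hspa1b levels was not tested. Cumulus cell markers summed to at most 0.0352 CPM in any group, with Ptx3 and Inhba at 0 in all 4.

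Hspa8 (chromosome 9, 40800984 to 40810087, plus strand) encodes HSC70, the HSP70 made without stress, and differed little between the stages. Its lowest, median and highest cells were 2365, 3593 and 4860 CPM in 8-cell control and 1312, 2683 and 3567 in 8-cell mimic. They were 1815, 2779 and 4410 in 32-cell control and 835, 2076 and 3185 in 32-cell mimic. The groups overlapped, although all 24 8-cell mimic cells lay under the 8-cell control median. Pooled, it was 1.41-fold lower in mimic at the 8-cell stage [1.398 to 1.423] and 1.37-fold lower at the 32-cell stage [1.36 to 1.38]. From 8-cell to 32-cell cells it was 1.29-fold lower in control and 1.25-fold lower in mimic. No difference in Hspa8 reached 2-fold. The 32-cell runs of title numbers nearly met, at 3119 and 2542 CPM in control and 1826, 2537 and 2013 in mimic.

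Dnajb1 (chromosome 8, 83608193 to 83612653, plus strand), a J protein that starts the HSP70 cycle and is a classic heat shock target, was lower in mimic at both stages and nearly level between the stages. Its lowest, median and highest cells were 0, 98.8 and 402 CPM in 8-cell control and 0, 46.2 and 244 in 8-cell mimic. In 32-cell control they were 2.81, 144.3 and 362, and in 32-cell mimic 0, 50.2 and 237. The ranges overlapped widely, and 1, 6, 0 and 7 cells of the 4 groups had no count. Mimic was 1.68-fold lower at the 8-cell stage [1.59 to 1.77] and just under 2-fold lower at the 32-cell stage (log2 difference −0.99). All 3 mimic runs at the 32-cell stage, at 62.5 to 74.4 CPM, lay under both control runs, at 140 CPM each. At the 8-cell stage the levels in control and mimic differed more in one type: in Y type cells they were 108.01 against 32.7 CPM, and in Xist type cells 101.7 against 84.8.

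Without the 3 cells with few genes, Dnajb1 in 8-cell mimic was 70.8 CPM in place of 61.8, and its stage difference in mimic was −0.02 in place of 0.18.

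Hsph1 (chromosome 5, 149614287 to 149636376, minus strand) encodes HSP110, a nucleotide exchange factor for HSP70. It was 4.05-fold higher at the 32-cell stage in control [3.96 to 4.14] and 2.33-fold higher in mimic [2.26 to 2.41]. Its lowest, median and highest cells were 0, 201 and 738 CPM in 8-cell control and 0, 134 and 389 in 8-cell mimic. In 32-cell control they were 359, 927 and 2384, with 27 of 39 cells above every 8-cell control cell, and in 32-cell mimic 0, 313 and 1029, with 14 of 39 cells above every 8-cell mimic cell. Mimic was therefore lower at both stages, by 1.60-fold at the 8-cell [1.54 to 1.65] and 2.77-fold at the 32-cell stage [2.73 to 2.82].

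Of the 32-cell mimic cells, 38 of 39 were under the control median for Hsph1. Pooled runs were 1208 and 757 CPM in control and 356, 515 and 233 in mimic, so every mimic run was under every control run, although the control runs differed by more than some mimic and control runs did. Without the second mimic run the stage difference in mimic was 0.92 and under 2-fold. In 8-cell control, Y type cells had more Hsph1 (357 CPM) than Xist type cells (210.4), and in 8-cell mimic the values were 144.8 and 150.6. The part of Xist or Y type in the 32-cell difference was not tested.

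Hsp90aa1 (chromosome 12, 110690605 to 110702728, minus strand) and Hsp90ab1 (chromosome 17, 45567775 to 45573271, minus strand) encode the stress-inducible and the constitutive cytosolic HSP90. They moved in opposite directions between the stages, so that the constitutive gene gave way to near parity. Hsp90aa1 was 2.28-fold higher at the 32-cell stage in control [2.26 to 2.31] and 2.24-fold higher in mimic [2.23 to 2.26]. Hsp90ab1 was 1.75-fold lower in control [1.74 to 1.76] and 1.63-fold lower in mimic [1.62 to 1.64]. Their sum was near constant, at 7830 and 7176 CPM in control and 9782 and 9668 in mimic.

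Hsp90aa1 ran over 845, 1550 and 2585 CPM (lowest, median, highest) in 8-cell control and 1352, 2273 and 4775 in 8-cell mimic. It ran over 1771, 3769 and 5399 in 32-cell control and 1970, 4794 and 9544 in 32-cell mimic. In control 33 of 39 32-cell cells were above every 8-cell cell. Hsp90ab1 ran over 4345, 6344 and 9357 in 8-cell control and 4804, 7260 and 11823 in 8-cell mimic. It ran over 1789, 3522 and 6953 in 32-cell control and 2469, 4259 and 9904 in 32-cell mimic, and 38 of 39 32-cell control cells were under the 8-cell control median.

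The ratio of the pair within a cell, which does not depend on the total counts of that cell, separated the stages without overlap. Per transcript length, Hsp90aa1 over Hsp90ab1 was 0.134 to 0.306 with a median of 0.188 in 8-cell control, and 0.114 to 0.343 with a median of 0.243 in 8-cell mimic. It was 0.490 to 1.25 with a median of 0.781 in 32-cell control, and 0.498 to 1.80 with a median of 0.819 in 32-cell mimic. The lowest of the 78 32-cell cells was above the highest of the 54 8-cell cells. Per length Hsp90aa1 was the higher of the pair in 0 of 54 8-cell cells, 3 of 39 32-cell control and 11 of 39 32-cell mimic cells. These numbers depend on the lengths used, and in counts not divided by length they were 0 of 54, 22 of 39 and 22 of 39. Without the 3 cells with few genes the 8-cell mimic range was the same and its median 0.247.

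**Figure D3:**
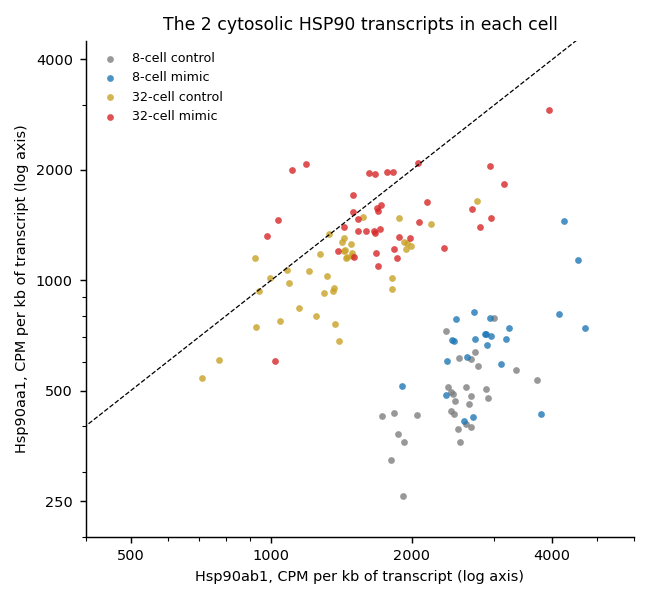
Hsp90aa1 against Hsp90ab1 in each cell, in CPM per kilobase of the longest transcript on log axes; the dashed line marks equal levels. The 8-cell cells lie far below the line, with ratios of at most 0.343, and the 32-cell cells lie near it, with ratios of 0.490 or more.

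Both HSP90 genes were higher in mimic at both stages, opposite to Hspa8. Hsp90aa1 was 1.43-fold higher at the 8-cell [1.41 to 1.44] and 1.40-fold higher at the 32-cell stage [1.39 to 1.41], and Hsp90ab1 was 1.20-fold [1.20 to 1.21] and 1.29-fold higher [1.285 to 1.3003]. At the 32-cell stage every mimic run (4489 to 5671 CPM) was above both control runs (3601 and 3583) for Hsp90aa1, and every mimic run (4190 to 5261) above both control runs (3577 and 3590) for Hsp90ab1. In Xist type and Y type 8-cell cells, the control levels of Hsp90aa1 were 1577 and 1565 CPM and its mimic levels 2218 and 2592. For Hsp90ab1 the control levels were 6388 and 5943 CPM and the mimic levels 7325 and 8051. Single cells overlapped, with 11 of 39 32-cell mimic cells above every control cell for Hsp90aa1. None of these treatment differences reached 2-fold.

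Hspa5 (chromosome 2, 34771970 to 34777547, plus strand) encodes BiP, the HSP70 of the ER, which holds the unfolded protein response sensors inactive. It was 3.23-fold higher at the 32-cell stage in control [3.18 to 3.27] and 2.86-fold higher in mimic [2.81 to 2.92]. Its lowest, median and highest cells were 241, 602 and 1548 CPM in 8-cell control and 0, 366 and 919 in 8-cell mimic. They were 766, 1915 and 3079 in 32-cell control and 340, 1047 and 2555 in 32-cell mimic. In control 31 of 39 32-cell cells were above every 8-cell cell, and in mimic 21 of 39 were.

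Hspa5, the gene of the 10 with a miR-381-3p seed match, was lower in mimic, by 1.56-fold at the 8-cell [1.53 to 1.59] and 1.76-fold at the 32-cell stage [1.74 to 1.78], under 2-fold both times. The 3 8-cell mimic cells at 0 were the 3 with few genes, and without them Hspa5 was 1.36-fold lower in 8-cell mimic. In Xist type 8-cell cells it was 578 CPM in control and 469.7 in mimic, and in Y type cells 702 and 293, a log2 difference of −1.26 and past 2-fold. Among 32-cell mimic cells 36 of 39 were under the control median, and mimic runs (1071, 1313 and 1001 CPM) were all under control runs (2146 and 1741). The part of the seed match in this difference was not tested.

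Hsp90b1 (chromosome 10, 86690209 to 86705509, minus strand) encodes GRP94, the HSP90 of the ER, which folds integrins and Toll-like receptors among others. It had the largest stage difference of the genes at 20 CPM or more, 6.37-fold higher in 32-cell control [6.18 to 6.57] and 10.4-fold higher in 32-cell mimic cells [9.88 to 11.0]. Its lowest, median and highest cells were 0, 93.5 and 509 CPM in 8-cell control and 0, 29.2 and 206 in 8-cell mimic. They were 151.1, 742 and 1310 in 32-cell control and 50.1, 448 and 961 in 32-cell mimic. In mimic 36 of 39 32-cell cells were above every 8-cell cell, and in control 33 of 39.

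At the 8-cell stage Hsp90b1 was 2.63-fold lower in mimic [2.48 to 2.80], with no count in 9 of 24 mimic and 2 of 30 control cells at near-equal median depth. Without the 3 cells with few genes it was 2.68-fold lower. It was also lower in mimic within Xist type cells (113.2 and 40.7 CPM) and within Y type cells (134.9 and 49.4). At the 32-cell stage it was 1.61-fold lower in mimic [1.58 to 1.63], and the runs crossed, at 869 and 603 CPM in control and 376, 618 and 442 in mimic. Both ER chaperones had the same direction in all 4 comparisons.

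Hspb1 (chromosome 5, 135887919 to 135889563, plus strand) encodes HSP27 (HSP25 in mice), a small heat shock protein that holds unfolded proteins without ATP and binds actin. It was a low gene with the largest treatment difference of the 10 in log2(CPM + 1). Its stage difference pointed in opposite directions in control and mimic, while that of Dnajb1 in mimic was too near 0 to have a settled sign without the 3 cells with few genes (−0.02, turned by leaving out any of 20 of 60 cells). Its lowest, median and highest cells were 0, 15.7 and 97.4 CPM in 8-cell control and 0, 6.17 and 110 in 8-cell mimic. In 32-cell control they were 0, 3.78 and 25.7, with 16 of 39 cells at 0, and in 32-cell mimic 0, 30.1 and 186, with 2 of 39 at 0.

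Pooled, Hspb1 was 17.4 [16.1 to 18.8] and 19.5 [18.01 to 21.2] CPM in 8-cell control and mimic, and 5.24 [4.66 to 5.87] and 39.5 [37.8 to 41.2] at the 32-cell stage. It was thus 7.53-fold higher in 32-cell mimic than in 32-cell control [6.67 to 8.53], above 99.4% of the genes compared, and 22 of 39 mimic cells were above every control cell. Both ICM-like and TE-like cells, defined below, showed it. Mimic runs were 55.6, 23.4 and 36.2 CPM and control runs 6.96 and 2.67, so the runs did not overlap. At the 8-cell stage, Xist type and Y type cells had 18.99 and 13.6 CPM in control and 20.6 and 10.5 in mimic. Single cells held few counts, since 3 counts were 2.31 to 2.55 CPM at median depth.

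Between stages, Hspb1 was 3.32-fold lower in 32-cell control [2.89 to 3.82], both under 20 CPM, and 2.02-fold higher in 32-cell mimic [1.84 to 2.21], a log2 difference of 0.98. Cell 65, 1 of the 3 with few genes, gave 31.8% of the 8-cell mimic counts. Without the 3 the 8-cell mimic level was 15.3 CPM and the stage difference 1.31, past 2-fold.

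**Figure D4:**
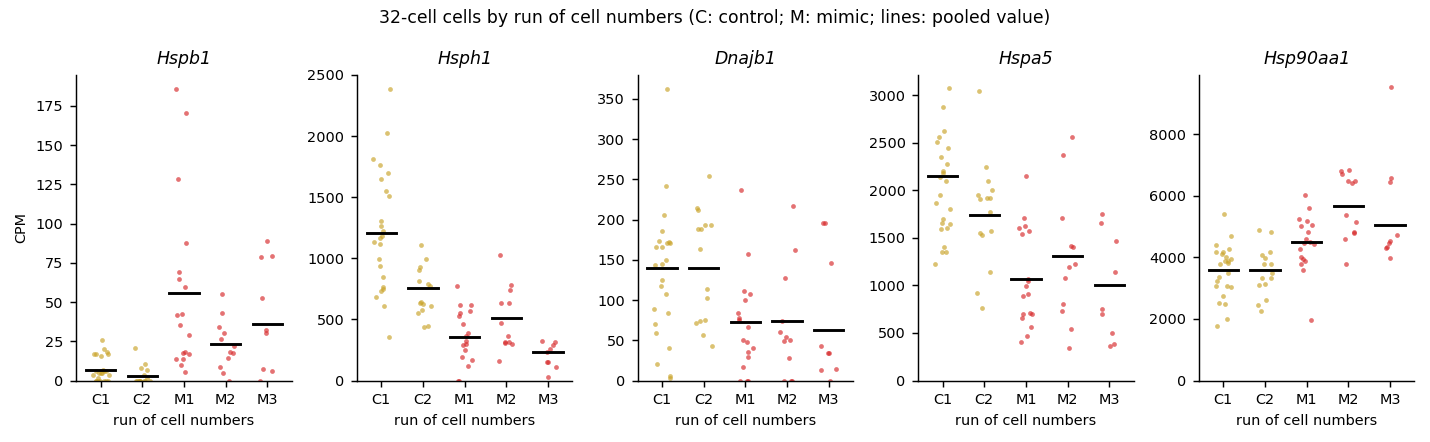
CPM of 5 chaperone genes in 32-cell cells, by run of title numbers, 2 control runs (C1, 24 cells, and C2, 15) and 3 mimic runs (M1, 18 cells, M2, 12, and M3, 9); points are cells and lines are pooled values. Every mimic run is above both control runs for Hspb1 and Hsp90aa1 and under both for Hsph1, Dnajb1 and Hspa5.

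At the 32-cell stage the inner cell mass (ICM), which forms the embryo proper, separates from the trophectoderm (TE), which forms the placenta. Clusters built without the chaperones or lineage markers gave 25 ICM-like and 14 TE-like control cells and 11 and 28 mimic cells. Each class had all 9 of its markers higher, but the clusters were named by the mean levels of these same markers. The marker directions are thus largely set by the naming and do not test it. Of the top 10 genes by fold, 2 were ICM markers in ICM-like cells and 0 were TE markers in TE-like cells. The mimic split was uncertain, with 15 ICM-like cells when all genes entered and 17 by marker score. The chaperones differed little between the classes. In control the largest difference was Hsph1, 0.35 log2 higher in ICM-like cells (1130 against 889 CPM), followed by Hspa5, 0.24 lower (1840 against 2175). In mimic the largest at 20 CPM or more was Hspb1, 0.88 lower in ICM-like cells (24.2 against 45.2 CPM), against −0.01 in control.

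The treatment differences had the same direction in both classes for the 8 genes other than Hspa1a and Hspa1b, and their gaps between classes were not tested. Mimic less control in log2 was 2.02 for Hspb1 within ICM-like and 2.88 within TE-like cells. It was −1.44 and −1.33 for Hsph1, −0.93 and −0.87 for Hspa5, and 0.64 and 0.20 for Hsp90ab1, in the same order. The 2-fold calls for Hspb1 and Hsph1 held in each class, and Dnajb1 passed 2-fold in ICM-like cells alone (−1.10 against −0.97).

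On 7 lists of other chaperone genes, 100 genes had a row in the table. Their counts are read against the shares of all genes given above, 30% higher and 20.1% lower between the stages in control and 29.1% and 18.8% in mimic. On the list of ER chaperones, folding enzymes and unfolded protein response genes, 10 of 24 at 20 CPM or more were 2-fold higher and 4 lower in control, and 10 and 1 of 24 in mimic, with medians of 0.85 and 0.81 beside 0.20 for all genes. Herpud1, an ER-associated degradation gene, had 0 counts in 8-cell control and 58.8 CPM in 32-cell control. Xbp1, the transcription factor of the unfolded protein response that splicing activates, went from 4.44 to 169.2 CPM in control and from 9.06 to 148.5 in mimic. Pdia6, a disulphide isomerase, went from 46.6 to 411 CPM in control. The 4 lower in control were Dnajb9, a J protein of the ER, at 919 CPM in 8-cell and 112.8 in 32-cell cells, and Ern1, Uggt1 and Atf6, of which Ern1 and Atf6 lay outside the naming rule and were named after their values were seen. Between mimic and control 0 genes of this list passed 2-fold at the 8-cell stage, where 6.96% of all genes were higher and 6.09% lower, and 0 at the 32-cell stage, where 6.87% were higher and 5.36% lower. The latter count rests on the scaling, since Calr, another ER chaperone, and Creld2 were each at −0.99 and both passed with TMM or median-of-ratios factors, alternatives applied to the lists after seeing the data.

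The ER stress response element was in the promoters of 7 of the 23 genes of this list with a promoter in the table: Calr, Canx, Creld2, Dnajc3, Ero1b, Pdia6 and Syvn1. Ero1b had no row in the count table. The stage differences of those at 20 CPM or more in control were 1.77 for Calr, 1.17 for Canx, 0.90 for Creld2, −0.93 for Dnajc3 and 3.11 for Pdia6. Genes with the element thus lay on both sides of 0. Canx, Dnajc3, Ero1b and Syvn1 lay outside the naming rule and were named for the element after their values were seen.

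Mitochondrial chaperones were 2-fold higher at the 32-cell stage in 6 of 10 in control, where 30% of all genes were, and in 6 of 9 in mimic, where 29.1% were. They were lower in 0, and their medians were 1.20 and 1.44. Hspd1, the mitochondrial HSP60, went from 234 to 779 CPM in control and from 182 to 496 in mimic, and its partner Hspe1 from 31.5 to 115.5 in control. Trap1, the mitochondrial HSP90, went from 87.1 to 331 in control and from 76.6 to 360 in mimic. The HSP90 family thus held a gene with a 2-fold higher level at the 32-cell stage in the cytosol, the ER and the mitochondria, while Hsp90ab1 was lower.

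HSP90 co-chaperones and HSP70 partners were mixed. In control the shares of co-chaperones were under those of all genes in each direction (30% higher and 20.1% lower). For HSP70 partners the share higher was under that of all genes, and the share lower was about equal to it. Another partner, Dnaja1, was at −0.999 and passed 2-fold lower with TMM or median-of-ratios factors. Dnaja1 lay outside the naming rule and was named after its value was seen. In mimic the shares of both lists that were lower exceeded that of all genes (18.8%), for HSP70 partners only with the 3 cells with few genes kept. Of 15 co-chaperones 4 were higher and 2 lower in control and 1 and 4 in mimic. Stip1, which links HSP70 to HSP90, was lower at the 32-cell stage, at 2794 and 1284 CPM in control and 2682 and 1049 in mimic, and Sugt1 was too. Of the HSP70 partners 3 of 15 were higher and 3 lower in control, and 4 and 3 of 14 in mimic. Bag3, an exchange factor that pairs with small heat shock proteins, was 57.7 CPM in 8-cell control, 17.02 in 8-cell mimic, 147.4 in 32-cell control and 115.1 in 32-cell mimic, and was the only HSP70 partner 2-fold lower in 8-cell mimic. Hspa2, the testis HSP70, was 30.7 CPM in 8-cell and 0.809 in 32-cell control.

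Of 14 genes of TRiC, the cytosolic chaperonin, and prefoldin, 2 were higher and 1 lower in control and 1 and 1 in mimic. Of the small heat shock proteins other than Hspb1, Hspb8 and Cryab alone reached 20 CPM. Hspb8 went from 0 to 93.7 CPM in control and from 12.5 to 75.3 in mimic, where cell 64, 1 of the 3 with few genes, held all of the 8-cell counts, so that the level without these 3 was 0. Cryab went from 0.354 to 30.1 and from 0.582 to 56.8. Neither differed 2-fold between mimic and control at the 32-cell stage. Cryab was 0.90 log2 higher in mimic there, the direction of Hspb1, and Hspb8 was 0.31 lower. Hsf1, the main heat shock factor, was 24.3 CPM in 8-cell control, 50.05 in 8-cell mimic, 67.6 in 32-cell control and 61.0 in 32-cell mimic, and 2 of 3 genes on the list of heat shock factors and their regulators were 2-fold higher at the 32-cell stage in control and 0 of 3 in mimic. That gap between control and mimic was not tested.

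**Figure D5:**
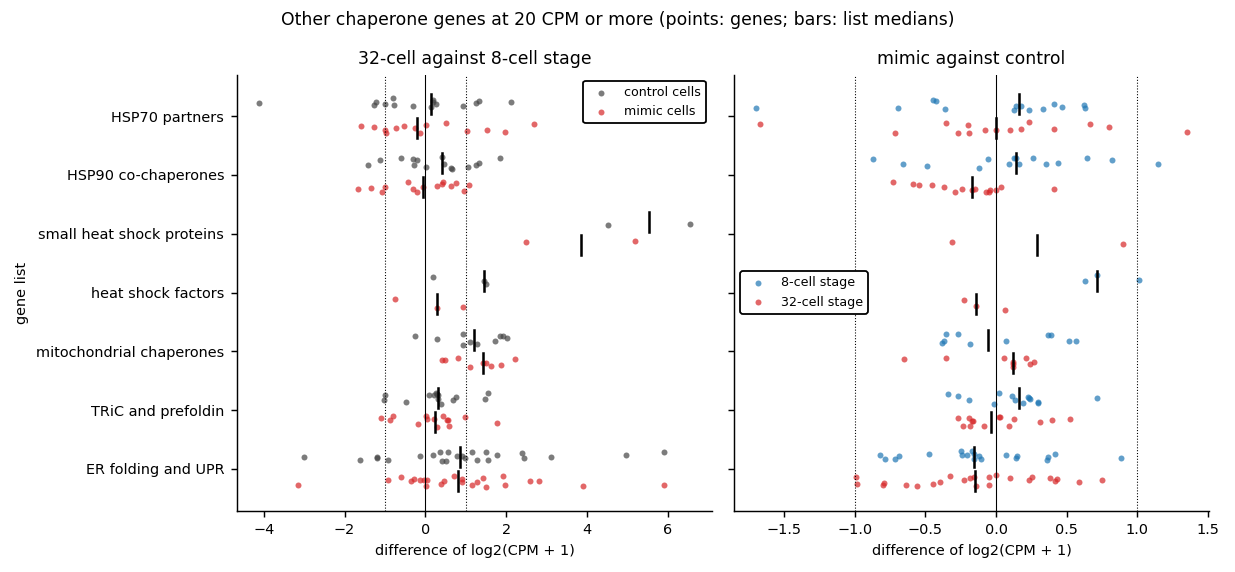
Differences of log2(CPM + 1) for the other chaperone genes that reached 20 CPM in either group, by list, for the stage comparisons at left and mimic less control at right (UPR: unfolded protein response); points are genes, black bars list medians and dotted lines 2-fold. ER and mitochondrial lists have medians of 0.81 to 1.44 between stages, and 3 genes at the 8-cell and 2 at the 32-cell stage pass 2-fold between mimic and control.

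Between mimic and control, 2 of the 76 list genes at 20 CPM or more were 2-fold higher at the 8-cell stage, Chordc1 and Hsf1, and 1 was lower, Bag3, where 6.96% of all genes were higher and 6.09% lower. At the 32-cell stage 1 of 82 was higher, Dnajb2, and 1 lower, Hspa13, where 6.87% were higher and 5.36% lower. With median-of-ratios factors Hsf1 no longer passed at the 8-cell stage, nor Hspa13 at the 32-cell stage. Without the 3 cells with few genes, Chordc1 no longer passed at the 8-cell stage and Dnajc3 of the ER list did, lower in mimic, where 6.57% of all genes were higher and 5.97% lower. In the stage comparison of mimic cells, leaving them out changed the counts higher and lower to 3 and 2 for HSP70 partners, 0 and 3 for HSP90 co-chaperones, 1 and 0 for heat shock factors, 2 and 0 for TRiC and prefoldin, and 10 and 2 for the ER list.

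Within groups, the chaperones did not vary from cell to cell as a single set. Over all cells, after each group's mean of log2(CPM + 1) had been subtracted, the strongest correlation among the 10 was that of the cytosolic HSP90 pair (Pearson's r = 0.535), and it was 0.385 to 0.718 within each group without the 3 cells with few genes. Hspa5 and Hsp90b1 had r = 0.21. Cells of a group share library preparation and perhaps embryos, and these values are descriptions. The genes most like Hsp90ab1 were the ribosomal protein genes Rps26, Rps16 and Rpl8 (r = 0.62, 0.59 and 0.59). Those most like Hspa5 were Tra2b, Gm26917 and Mrpl42 (r = 0.72, 0.69 and 0.65), but these rested on the 3 cells with few genes, without which r was 0.19, 0.17 and 0.05. The nearest to Hspa5 among the other 129 cells were then Serp1, Srpr and Manf (r = 0.38, 0.35 and 0.34), all of the secretory pathway. Hspa8 was then nearest to Pdia3 (r = 0.48). The nearest genes of the other 6 had r of 0.43 or less in either set of cells.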

How the data were processed

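The authors sequenced Smart-seq2 libraries, aligned the reads to mm10 (GRCm38) with STAR (version 2.5.1b) and estimated counts per gene with RSEM (version 1.3.0). The deposited table held these expected counts, all whole numbers and not normalised, for 32245 genes and 132 cells. The study's filter (3000 or more genes and under 10% mitochondrial counts) removed 0 cells. There were 0 pairs of identical cells, and no doublet caller was run, since the labels say that single cells were picked with glass capillaries. Counts of 13 mitochondrial genes were left out, and counts were summed over the cells of a group. CPM, exact 95% intervals (Poisson for CPM, conditional binomial for fold differences) and differences of log2(CPM + 1) were computed in Python (version 3.11.15). A count of 0 was limited by 3 counts. The libraries carried no molecular identifiers, so PCR copies of a molecule are counted separately. No test between groups was run, since labels name no embryo. The calculation of the pooled differences was checked on simulated counts with known fold changes. Cells were clustered with Seurat (version 5.3.0) on every other gene in alphabetical order, without chaperones and markers, at a resolution of 1, and TMM factors came from edgeR (version 4.0.16) in R (version 4.3.3).

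Named genes were the 10 chaperones in every comparison, the 3 genes with the largest difference on each list in each comparison, of which those a result turned on are given with exceptions marked where they stand, and the 3 genes most correlated with each chaperone among genes with counts in over 33% of cells. The chaperones, lists, rules and alternatives were chosen with earlier results of these data known. The 3 cells with few genes were set apart after seeing the data. Transcript lengths and 3′ UTRs came from GENCODE M21, and promoters and the miRNA from RefSeq on GRCm38.p6.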

Additional observations from a re-analysis of the deposited data

Results flagged for a closer look

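The stage difference of Hspb1 in log2(CPM + 1) was −1.56 in control and 0.98 in mimic cells, so it was 2.54 higher in mimic. It stood out because the pooled values moved in opposite directions under the same contrast. The difference was not tested, since each group is 1 sample, and the single cells of the 4 groups overlap. The groups of the 2 stages also differ in dose, and the 32-cell groups differ in Xist and Y-linked transcripts.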

How the results depend on the processing

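The number of chaperones past 2-fold was recomputed for each comparison under 18 to 21 alternatives, and it stayed within 1.5 times of the reported number in 16 of 18 for the stages in control, 18 of 19 for the stages in mimic, 13 of 18 for the treatments at the 8-cell stage and 19 of 21 for those at the 32-cell stage. At a fold of 4 or more the counts were 2, 1, 0 and 1 in that order. With no minimum CPM, 7 passed between the stages in control, Hspa1a, Hspa1b and Hspb1 lower. Between the treatments, a fold of 1.5 or more gave 4 at the 8-cell and 5 at the 32-cell stage. The shares of all genes at folds of 1.5 or 4 and with no minimum CPM were not computed. Whether these counts exceed those shares is therefore not known. At the 8-cell stage, the difference of mean log2(CPM + 1) of single cells gave 4 (Hspa5, Hsp90b1, Hsph1 and Dnajb1 lower), the median CPM of single cells gave 2, and Y type cells alone gave 5. For the stages in mimic, Hsp90aa1 was 0.97 with median-of-ratios size factors, which left 3, and Hsph1 was 0.92 without the second mimic run. Hspb1 passed there in 9 of 19: with a pseudocount of 0.1 (1.01), mean CPM (1.17), mean log2(CPM + 1) (2.06) or median CPM (2.12) of single cells, thinned counts (1.20), without the highest cell of each group (1.33), the second (1.23) or the third mimic run (1.03), or the 3 cells with few genes (1.31). Leaving out those 3, and each cell in turn, was chosen after seeing the data. Hspb1 brought the count to 5, or to 4 without the second run. Dnajb1 passed between the treatments at the 32-cell stage, which gave 3, with TMM factors (−1.10), median-of-ratios factors (−1.09), mean log2(CPM + 1) (−1.77) or median CPM (−1.50) of single cells, without the first (−1.02) or second (−1.03) mimic run, and in ICM-like cells (−1.10). Dnajb1 between the stages in mimic was negative in 3 of 19 alternatives, and kept its sign in 16, with a range of −0.27 to 0.59. Hspb1 between the treatments at the 8-cell stage kept its sign in 12 of 18, with a range of −1.22 to 0.17. TMM and median-of-ratios scaling moved the median of all genes from 0.20 to 0.17 and 0.06 between the stages in control, from 0.20 to 0.04 and −0.04 in mimic, and from 0.01 to −0.11 and −0.10 between the treatments at the 32-cell stage. On the lists, 4 genes passed between the treatments at the 32-cell stage with TMM factors in place of 2, Calr and Creld2 added, an alternative also chosen after seeing the data. The causes were not tested. No paired analysis was possible because cell numbers do not pair cells across groups and no test was run. Each group is 1 sample of unknown embryos, so no spread between embryos can be given, and the depth limits Hspa1a, Hspa1b and Hspb1 in single cells.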
